A study of Mus musculus with 8 samples.

Results

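Efferocytosis is the clearance of dying cells by phagocytes, and 10 genes of its recognition and uptake step were followed here in mouse kidney after ischemia-reperfusion (I/R). The 10 were chosen by name for their roles and taken by gene symbol from a table of 25239 genes: the receptors Mertk, Axl, Tyro3, Stab1 and Lrp1, the bridging molecules Gas6, Pros1 and Mfge8, and the uptake machinery Elmo1 and Dock1. All 10 were present and all 10 passed the filter on low counts. The series holds 8 libraries of whole kidney tissue, all after removal of the right kidney and clamping of the left renal vessels for 35 minutes. In 4 control libraries the genotype label was wild type. In 4 knockout libraries it was a myeloid deletion of the transcription factor FoxO1, made with tamoxifen-dependent Lyz2-CreERT2 and floxed FoxO1 alleles. An age of 8 to 10 weeks is given for all 8 samples. Tamoxifen at 75 mg per kg on 5 days appears in the protocol of all 8 samples, and no source used here says whether controls carried Cre or what time passed between reperfusion and collection. Lyz2 is active in neutrophils and monocytes as well as macrophages, so the deletion is not limited to macrophages, and the tissue was digested with collagenase before its RNA was taken. The labels number the libraries within each group and do not say that each came from a separate mouse; p-values therefore measure the spread between libraries, which may be technical. In bulk tissue, fewer cells of a type and less RNA per cell cannot be told apart.

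A dying cell exposes phosphatidylserine, a lipid of the inner membrane leaflet, on its surface. Phagocytes bind it directly, through receptors such as Stab1, or through soluble bridging proteins: Gas6 and protein S (Pros1) connect it to the receptor tyrosine kinases Tyro3, Axl and Mertk (the TAM family), and Mfge8 connects it to integrins. Binding then activates the Elmo1-Dock1 complex, which loads the small GTPase Rac1 and remodels actin around the corpse. In the kidney, tubule cells as well as macrophages can take up dying neighbours after injury.

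Library totals ran from 29044405 to 35530421 counts, and levels are counts scaled by library size with TMM factors (CPM). Foxo1 itself ranged over 33.0 to 34.5 CPM (controls) and 39.3 to 42.9 CPM (knockouts); most kidney cells express it, so this does not check the myeloid deletion. Lyz2, the gene whose promoter drives the Cre, was low in control 1 (2.28 CPM) and knockout 3 (0.367 CPM) against 25.4 to 50.4 CPM in the other 6 libraries. The tissue label held: the 14 proximal tubule markers were all measured and summed to 11457 to 36022 CPM, of which Kap alone gave 7686 to 26074 CPM. All 14 macrophage markers were measured, with sums of 226 to 392 CPM in controls and 268 to 427 CPM in knockouts, and a median log2 fold change of -0.08.

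Promoter windows of all 10 genes were found in the RefSeq promoter table (build GRCm38.p6; Elmo1 has a pair of windows, giving 11). The stretches below are shown for the 4 genes with the smallest p in the comparison: the TAM receptors and Pros1. Each runs 5′ to 3′ on the gene's strand over the 250 bases before the annotated start, at chr2:128698665-128698914 (+ strand) for Mertk, chr7:25788734-25788983 (- strand) for Axl, chr2:119799264-119799513 (+ strand) for Tyro3 and chr16:62854057-62854306 (+ strand) for Pros1. Capitals mark matches, on either strand, to the FoxO motif GTAAACA, which appears as TGTTTAC when it lies on the other strand, and to the Sp1 motif GGGCGG, which then appears as CCGCCC; the last pair of Sp1 matches of Pros1 overlap.
Mertk: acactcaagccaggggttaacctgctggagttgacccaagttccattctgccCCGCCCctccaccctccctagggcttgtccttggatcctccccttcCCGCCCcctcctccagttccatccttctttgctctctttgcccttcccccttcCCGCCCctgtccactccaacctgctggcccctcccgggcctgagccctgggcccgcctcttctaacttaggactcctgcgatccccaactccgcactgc
Axl: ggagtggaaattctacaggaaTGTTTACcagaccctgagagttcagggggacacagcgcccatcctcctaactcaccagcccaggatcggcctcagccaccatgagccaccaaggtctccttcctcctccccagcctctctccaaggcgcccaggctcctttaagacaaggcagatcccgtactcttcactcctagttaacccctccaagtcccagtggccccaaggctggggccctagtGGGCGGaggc
Tyro3: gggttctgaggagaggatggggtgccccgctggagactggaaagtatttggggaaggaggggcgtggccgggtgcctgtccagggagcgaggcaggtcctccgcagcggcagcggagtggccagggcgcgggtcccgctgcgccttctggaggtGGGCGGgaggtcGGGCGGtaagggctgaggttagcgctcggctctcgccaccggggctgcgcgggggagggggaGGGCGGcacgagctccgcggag
Pros1: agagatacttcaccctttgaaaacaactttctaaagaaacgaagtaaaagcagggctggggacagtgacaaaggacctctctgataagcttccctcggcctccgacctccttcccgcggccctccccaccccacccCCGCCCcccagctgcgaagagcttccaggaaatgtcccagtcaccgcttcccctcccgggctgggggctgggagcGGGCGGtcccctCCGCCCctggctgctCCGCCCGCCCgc

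The FoxO motif, which other forkhead factors can also bind, was found in 1 of the 11 windows, that of Axl, where it begins 229 bases before the start. Over all 32851 windows of the table, 3.65% held it. The Sp1 motif, a GC-rich sequence common in promoters, was found in 9 of the 11 windows, against 35.7% of all windows. The windows without it were those of Stab1 and of 1 start of Elmo1. Those with it held 58.3% to 73.3% G and C, where the median over all windows was 52.7%. The shares were not matched for this content. The AP-1 motif TGANTCA was in 0 of the 11 windows and in 7.81% of all windows. These matches are letters in a window and show no binding.

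Mertk was the 1 gene of the 10 that passed the test, and it was higher in the knockout. With edgeR, 6.45% of the 15000 genes tested were called higher and 6.28% lower, so 1 higher and 0 lower among 10 is near the background. (At an unadjusted p under 0.05, 3 of the 10 passed, 1 of them lower, against 29.1% of all genes; DESeq2 called 0 of the 10 lower, against 8.77% of the genes it tested.) The level did not overlap between groups for 3 genes: Mertk and Axl were higher in every knockout library and Pros1 was lower, where 11.1% of all tested genes separated upward and 10.6% downward. The median log2 fold change of the 10 was 0.11, beside -0.01 over all tested genes.

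**Figure D1:**
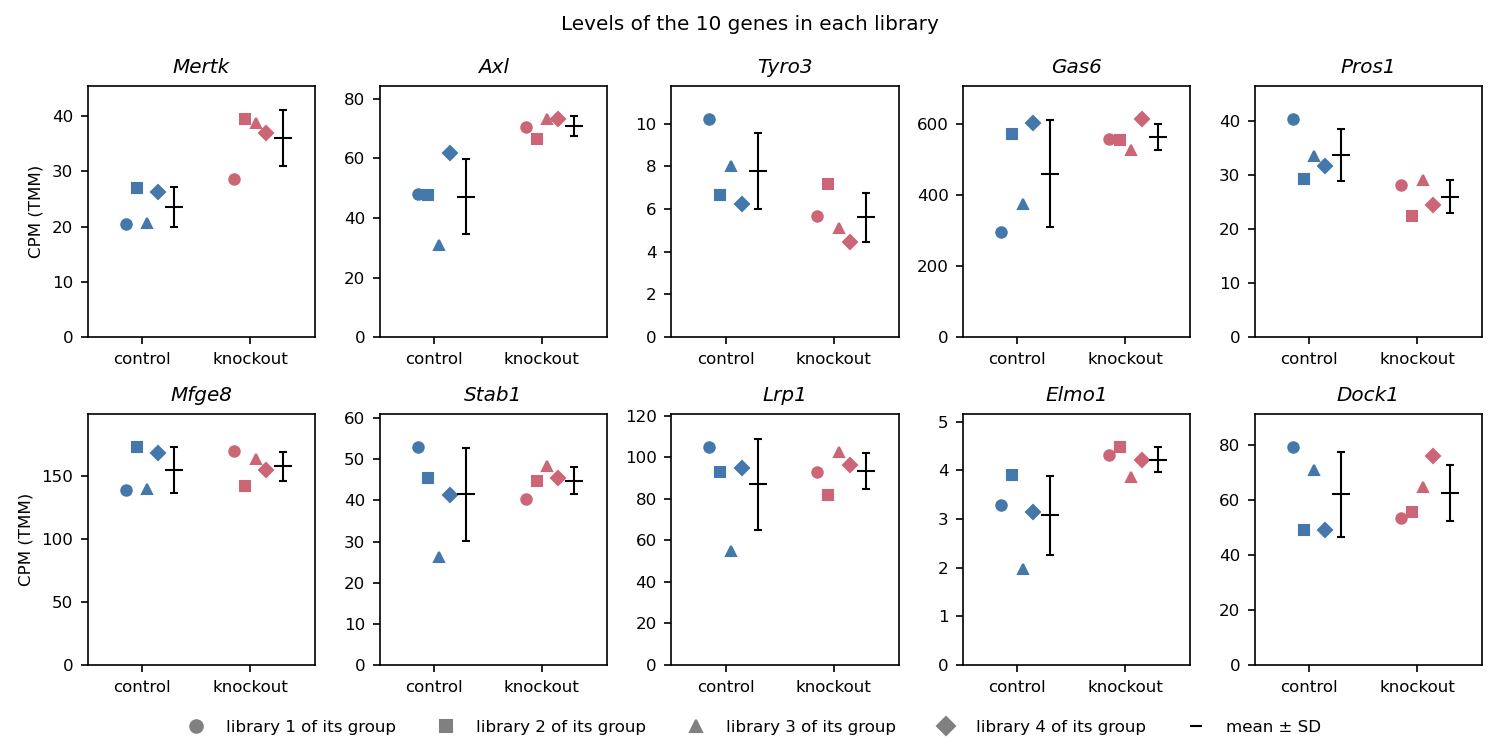
Levels of the 10 genes in CPM (linear axis from 0) in each control (blue) and knockout (red) library, with mean ± SD of 4 libraries in black; marker shapes give the library's number within its group. Mertk lies at 20.4 to 27.0 CPM in controls and 28.6 to 39.6 CPM in knockouts, while the groups overlap for Gas6, Mfge8, Tyro3, Stab1, Lrp1, Elmo1 and Dock1.

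Among the TAM receptors, Mertk, the macrophage receptor that couples Gas6 and protein S to engulfment, had levels of 20.4, 27.0, 20.6 and 26.3 CPM in the controls, numbered 1 to 4, and of 28.6, 39.6, 38.8 and 37.0 CPM in the knockouts, numbered likewise; the same order is kept for the genes that follow. Every knockout library was above every control library, knockout 1 by the smallest margin. The means were 23.6 ± 3.54 and 36.0 ± 5.06 CPM (SD, n = 4 each), 1.53-fold higher in the knockout (log2 fold change 0.61, SE 0.15, 95% interval of the fold 1.21 to 1.92, edgeR adjusted p = 0.0262). The call was lost without control 1 (edgeR adjusted p = 0.0517), control 3 (0.0757), knockout 2 (0.0763), knockout 3 (0.0718) or knockout 4 (0.0753), and without control 1 and knockout 3 together (0.116), with log2 fold changes of 0.51 to 0.60 in those fits.

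Axl, the TAM receptor that binds Gas6 and is induced in inflamed tissue, had 47.9, 47.7, 31.0 and 61.8 CPM in the controls against 70.5, 66.4, 73.2 and 73.3 CPM in the knockouts. The knockouts lay close together and above all controls, among which control 3 was lowest. The difference was 1.50-fold (log2 fold change 0.59, SE 0.18, 95% interval of the fold 1.14 to 1.98) and just missed the threshold (edgeR adjusted p = 0.0558). It passed with DESeq2 (adjusted p = 0.0239, where 9.6% of genes were called higher), with limma voom and sample quality weights (0.0396, 9.4%), with library totals in place of TMM factors (edgeR adjusted p = 0.0468, 7.15%) and without control 4 (0.0255, 4.86%); over the 18 alternatives its adjusted p ran from 0.0239 to 0.155.

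Tyro3, the other TAM receptor, was the scarcest of them: 10.2, 6.66, 8.00 and 6.25 CPM in controls and 5.69, 7.18, 5.13 and 4.48 CPM in knockouts. Controls 1 and 3 were above all knockouts, and controls 2 and 4 were below knockout 2. Its log2 fold change of -0.47 (SE 0.23) pointed the other way from those of Mertk and Axl and did not pass (edgeR adjusted p = 0.197; 95% interval of the fold 0.51 to 1.02).

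The macrophage marker sums given above overlapped between the groups, and 6 of the 14 markers had a positive and 8 a negative log2 fold change. The pair with the smallest p pointed opposite ways: Csf1r, the receptor that macrophages need for survival, averaged 36.1 CPM in the controls against 54.6 CPM for knockouts (edgeR adjusted p = 0.0546), and Cd68, a lysosomal protein of macrophages, 32.2 against 21.5 CPM (0.0534). Over the same groups the summed endothelial markers ran from 392 to 903 CPM in controls and from 904 to 1071 CPM in knockouts, with 4 of 14 markers called higher, and the summed proximal tubule markers from 11457 to 25981 and from 25722 to 36022 CPM, also with 4 of 14 called higher. The summed loop of Henle and distal nephron markers ran from 2740 to 4814 CPM in controls and from 8882 to 9382 CPM in knockouts, with 13 of 16 called higher, and the summed podocyte markers from 419 to 548 and from 620 to 699 CPM, with 5 of 9 called higher. Single genes made up much of the tubule sums. Kap ran from 7686 to 15531 CPM in controls and from 14913 to 26074 CPM in knockouts and was not called (edgeR adjusted p = 0.191). Umod, in the distal list, ran from 1977 to 3386 and from 5128 to 6020 CPM. The summed neutrophil markers ran from 26.3 to 163 CPM in controls and from 5.75 to 16.4 CPM in knockouts, with all 5 tested markers called lower. Of 8 monocyte and dendritic cell markers tested, 2 were called lower, Ccr2 and Chil3, and their sums overlapped. Over all tested genes, 6.45% were called higher and 6.28% lower. The part of any of these cell types in the Mertk and Axl levels was not tested.

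Per kilobase of the deposited gene length (RPKM), Axl was the most abundant TAM transcript in each library and Tyro3 the least. The sum of the 3 receptors was 16.2 ± 2.88 RPKM in controls (12.4 to 19.3) and 23.2 ± 1.20 RPKM in knockouts (21.5 to 24.2; SD, n = 4 each), with no overlap. Axl and Mertk made up most of that sum and were each higher in every knockout library, so its separation follows from theirs. Tyro3 made up 13.2, 8.21, 13.4 and 6.70% of that sum in controls 1 to 4 and 5.50, 6.36, 4.40 and 3.93% in knockouts 1 to 4. Its share was lower in every knockout library than in every control. The share also falls as the sum rises, and the Tyro3 levels themselves overlapped between the groups. The shares of Axl (49.2 to 62.8% in controls, 55.8 to 64.6% in knockouts) and Mertk (28.4 to 37.4% and 29.9 to 37.9%) overlapped, and the Axl-to-Mertk ratio averaged 1.75 ± 0.373 in controls and 1.76 ± 0.292 in knockouts. These ratios are described without a test.

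**Figure D2:**
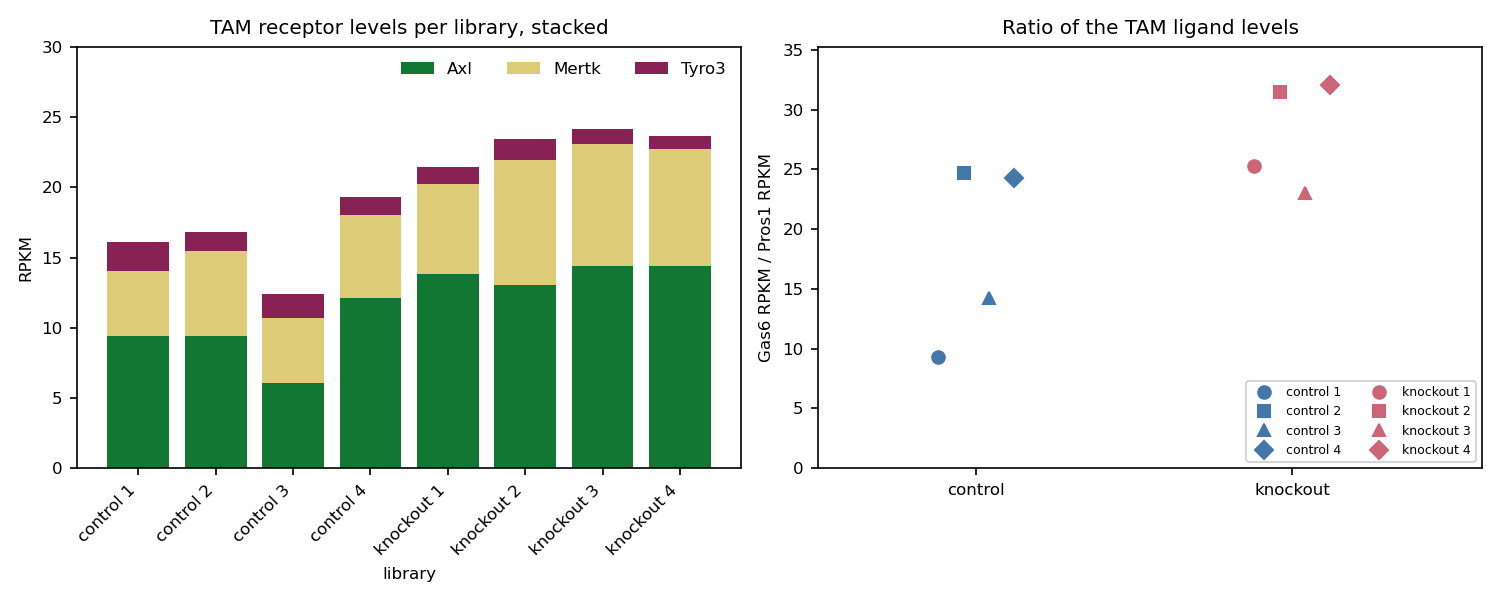
Left: RPKM of Axl, Mertk and Tyro3 stacked for each library; the sum is 12.4 to 19.3 in controls and 21.5 to 24.2 in knockouts. Right: ratio of Gas6 to Pros1 RPKM in each library on a linear axis from 0, which ranges from 9.29 (control 1) to 32.0 (knockout 4).

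The scavenger receptors gave no call. Stab1, stabilin-1, a phosphatidylserine receptor of alternatively activated macrophages and of some endothelia, had 53.1, 45.4, 26.2 and 41.3 CPM in the controls against 40.3, 44.8, 48.3 and 45.5 CPM in the knockouts. The controls spanned the whole range of the knockouts, with control 1 highest and control 3 lowest of all 8. The log2 fold change was 0.11 (SE 0.19, edgeR adjusted p = 0.743), with a 95% interval of the fold of 0.81 to 1.44. Stab1 shares 112 of its 7999 annotated exon bases with Nt5dc2 on the other strand (GENCODE M21), and libraries made with the kit of the protocol, NEBNext Ultra, carry no strand.

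Lrp1, a large endocytic receptor that recognises calreticulin on dying cells, had 105, 93.0, 54.9 and 94.7 CPM in the controls against 93.1, 81.9, 102 and 96.2 CPM in the knockouts. Control 3 was again lowest and the other 7 libraries lay within 81.9 to 105 CPM. Its log2 fold change was 0.10 (SE 0.18, edgeR adjusted p = 0.752; 95% interval of the fold 0.81 to 1.43). Without control 3 the values were -0.07 for Lrp1 and -0.06 for Stab1.

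Of the bridging molecules, Gas6, the vitamin K-dependent ligand of all 3 TAM receptors, was by far the most abundant of the 10 genes. It had 296, 571, 375 and 603 CPM in the controls against 560, 557, 527 and 615 CPM in the knockouts. Controls 1 and 3 were low, and controls 2 and 4 lay within the range of the knockouts. The log2 fold change was 0.29 (SE 0.21) and did not pass (edgeR adjusted p = 0.402; 95% interval of the fold 0.88 to 1.70). The spread between libraries, as a coefficient of variation, was 32.4% in controls and 6.55% in knockouts.

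Pros1, protein S, a blood anticoagulant that also activates Tyro3 and Mertk, had 40.5, 29.4, 33.6 and 31.6 CPM in the controls against 28.1, 22.5, 29.1 and 24.4 CPM in the knockouts. The groups did not overlap, but control 2 was above knockout 3 by only a small margin. The level was 1.30-fold lower in the knockout (log2 fold change -0.38, SE 0.14, 95% interval of the fold 0.62 to 0.95), which missed the threshold (edgeR adjusted p = 0.0992) and did so in all 18 alternatives (adjusted p 0.0755 to 0.244). The Gas6-to-Pros1 ratio, on RPKM, was 9.29, 24.7, 14.2 and 24.2 in controls and 25.3, 31.5, 23.0 and 32.0 in knockouts; controls 1 and 3 were low and the groups overlapped.

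Mfge8, the secreted bridge to integrins alpha-v beta-3 and alpha-v beta-5, was the most even of the 10 genes in controls, at 139, 174, 140 and 168 CPM, and stood at 170, 143, 164 and 155 CPM in knockouts. Its groups overlapped throughout. The log2 fold change was 0.02 (SE 0.12, edgeR adjusted p = 0.920), and the 95% interval of the fold, 0.85 to 1.22, was the narrowest of the 10 on the log2 scale.

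In the uptake machinery, Elmo1, the adaptor that carries Dock1 to the membrane and is abundant in leukocytes, was the scarcest gene, with 70 to 155 counts per library. It had 3.29, 3.91, 1.97 and 3.14 CPM in the controls against 4.32, 4.49, 3.86 and 4.21 CPM in the knockouts. Control 2 was above knockout 3 and below the other knockouts, and control 3 was lowest. The log2 fold change of 0.46 (SE 0.25) did not pass (edgeR adjusted p = 0.249; 95% interval of the fold 0.94 to 2.00).

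Dock1, the exchange factor for Rac1, had 79.4, 48.9, 70.7 and 49.2 CPM in the controls against 53.3, 55.7, 64.8 and 76.0 CPM in the knockouts. Controls 1 and 3 were high, controls 2 and 4 were the lowest of all 8, and 3 of the knockouts lay between these pairs while knockout 4 lay between controls 1 and 3. Its mean was 62.1 ± 15.4 CPM against 62.5 ± 10.3 CPM (SD, n = 4 each; log2 fold change 0.01, SE 0.19, edgeR adjusted p = 0.980; 95% interval of the fold 0.76 to 1.34).

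**Figure D3:**
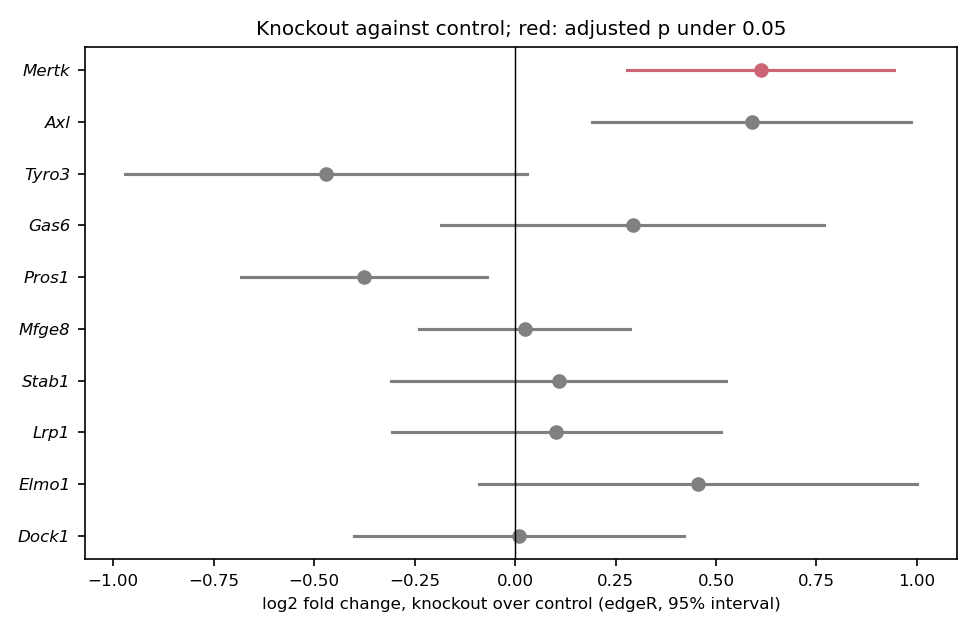
Log2 fold change of knockout over control for each gene (points) with its 95% interval (lines) from edgeR; red marks the adjusted p under 0.05 of Mertk. The intervals of Axl and Pros1 also leave out 0, at unadjusted p of 0.00786 and 0.0205, but their adjusted p values did not pass.

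The 10 genes differed widely in level. In controls Gas6 averaged 178 ± 57.7 RPKM and Mfge8 73.1 ± 8.60 RPKM, and neither range met that of its neighbour. Pros1 (10.2 ± 1.45 RPKM), Axl (9.27 ± 2.48 RPKM) and Dock1 (9.11 ± 2.26 RPKM) followed with overlapping ranges, then Lrp1 (5.84 ± 1.48 RPKM), Mertk (5.29 ± 0.795 RPKM) and Stab1 (5.19 ± 1.41 RPKM), again overlapping. Tyro3 (1.62 ± 0.372 RPKM) and Elmo1 (0.524 ± 0.138 RPKM) came last, each apart from the gene above it (SD, n = 4 throughout). In knockouts Axl (13.9 ± 0.637 RPKM) held rank 3 and its range lay above that of Dock1 (9.17 ± 1.51 RPKM), Mertk (8.08 ± 1.14 RPKM) rank 5 and Pros1 (7.89 ± 0.938 RPKM) rank 6, with the ranges of the last 3 overlapping.

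The control libraries were not alike, and the 10 genes fell into sets that moved together among them. Tyro3, Pros1 and Dock1 were higher in controls 1 and 3 than in controls 2 and 4, and Gas6, Mfge8 and Mertk were lower in controls 1 and 3. In the same libraries the summed 15 injured tubule markers stood at 30301 and 31126 CPM in controls 1 and 3 and at 16494 and 18858 CPM in controls 2 and 4, against 6372 to 7248 CPM in knockouts. Of the 15, 13 were called lower in the knockout (86.7%, beside 6.28% of all tested genes) and none was at 0. The proximal tubule sums went the other way, at 11457 and 16906 CPM against 24984 and 25981 CPM. Single genes made up much of both sums: over the controls Spp1 ran from 10476 to 21949 CPM and Kap from 7686 to 15531 CPM. Axl, Stab1, Lrp1 and Elmo1 were each lowest in control 3, where the summed endothelial markers (392 CPM), the summed fibroblast and mural cell markers (358 CPM; remaining controls 448 to 891 CPM, knockouts 713 to 1118 CPM) and the summed macrophage markers (226 CPM) were also lowest of the 8. The part of tissue composition or injury in these values was not tested.

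**Figure D4:**
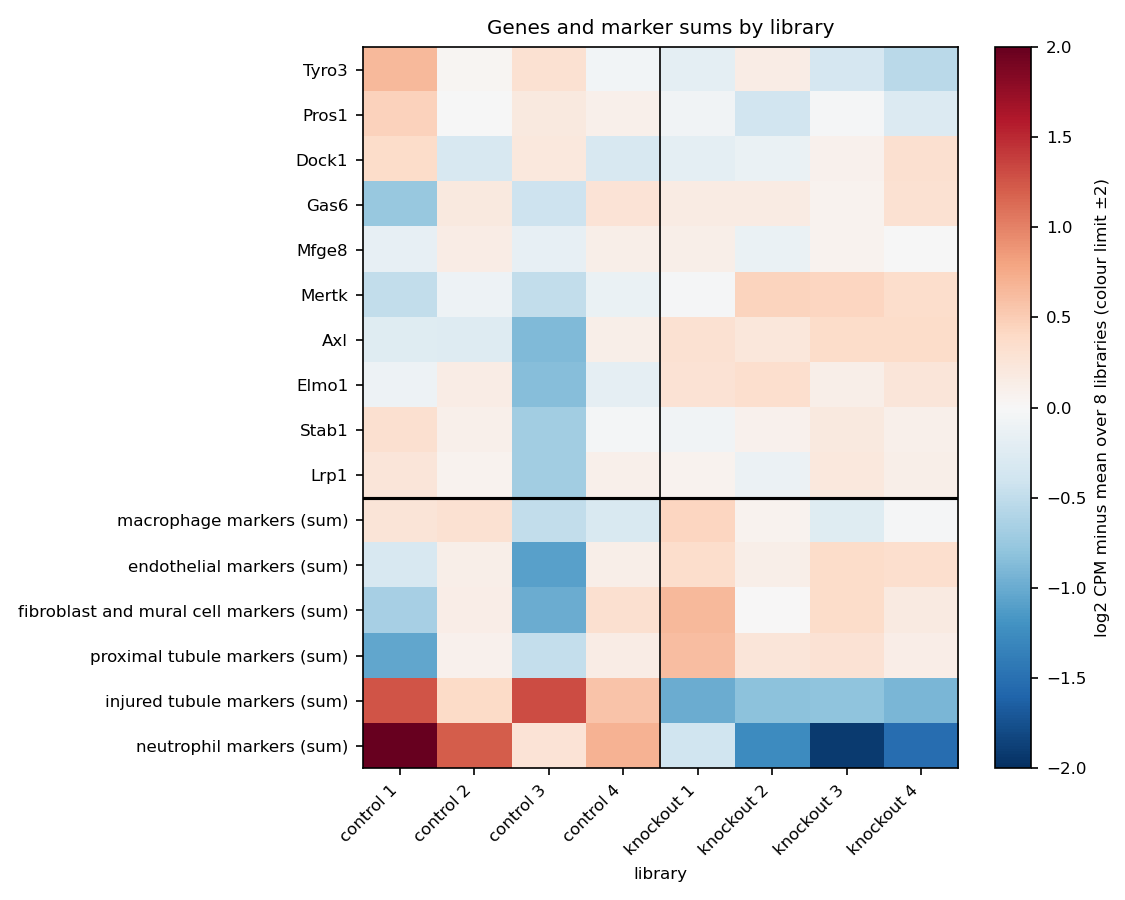
Log2 CPM of each gene (top) and log2 summed CPM of 6 marker lists (bottom) in each library, minus the row's mean over 8 libraries; colours stop at ±2. Controls 1 and 3 share high Tyro3, Pros1 and Dock1 and low Gas6, and control 3 is the lowest library for Axl, Elmo1, Stab1 and Lrp1.

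Taking deviations from the group means of log2 CPM over the 8 libraries, Stab1 and Lrp1 were the pair most alike (r = 0.93), followed by Axl and Lrp1 (0.86), Stab1 and Elmo1 (0.82) and Lrp1 and Elmo1 (0.78). The most opposed were Gas6 with Tyro3 (-0.77), with Dock1 (-0.76) and with Pros1 (-0.73). Gas6 and Mfge8 varied together (0.76). These values describe 8 libraries that share the shifts in marker sums given above. Those among Stab1, Lrp1, Axl and Elmo1 lean on control 3, the lowest library for each of them. Among the 10050 genes whose log2 CPM averaged 3 or more, the closest to Mertk by the same measure were Gga1 (r = 0.98), Naglu (0.95) and Asl (0.95), and the closest to Axl were Pdlim1 (0.99), Plxnd1 (0.95) and Myadm (0.95). The closest gene was Sephs1 for Tyro3 (0.98), Rfng for Gas6 (0.98), Spry1 for Pros1 (0.99), Tmem119 for Mfge8 (0.98), Gpr4 for Stab1 (0.98), Sdc3 for Lrp1 (0.98), Mapk12 for Elmo1 (0.95) and Hs2st1 for Dock1 (0.99). Each was picked as highest among 10050 genes over 8 libraries, and a search of that size can return a high r without a link between the genes.

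The rest of the pathway was read from 7 lists. Of 19 other phosphatidylserine and scavenger receptors 14 were tested, and 4 fell (28.6%, beside 6.28% of all tested genes called lower) while 10 did not pass (median log2 fold change -0.998, beside -0.01 over all tested genes). Havcr1, which encodes KIM-1, the receptor that lets injured tubule cells take up apoptotic neighbours, fell from 2286 ± 590 to 419 ± 92.2 CPM (log2 fold change -2.45, edgeR adjusted p = 5.80e-04); it is also an injury marker and its fall is the same value as in that list. Cd14, a co-receptor for bacterial lipopolysaccharide that also tethers dying cells, fell 3.53-fold (edgeR adjusted p = 0.00120), Cd36, a scavenger receptor for oxidised lipids, 2.07-fold (0.0139), and Cd300lf, a myeloid receptor for phosphatidylserine, from 3.62 ± 3.16 to 0.897 ± 0.264 CPM (0.0356). Control 1 held the highest Cd300lf level, 8.35 CPM where the remaining controls had 1.69 to 2.39 CPM, and the summed neutrophil markers were also highest there (163 CPM; remaining controls 26.3 to 50.3 CPM, knockouts 5.75 to 16.4 CPM). The call of Cd300lf was lost in 8 of 18 alternatives (adjusted p up to 0.109), among them leaving out control 1, control 3 or any 1 knockout (edgeR adjusted p 0.0537 to 0.0992). Timd4, Adgrb1, Adgrb3, Megf10 and Marco were too low to test.

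Of 15 other bridging molecules and opsonins 12 were tested, and Lgals3, galectin-3, a lectin that can serve as a Mertk ligand, was the 1 that passed, falling from 638 ± 102 to 367 ± 26.9 CPM (1.74-fold, edgeR adjusted p = 0.00688); 1 of 12 is 8.33%, near the 6.28% of all tested genes. The complement gene C3, whose product coats dying cells, stood at 192 ± 75.7 and 428 ± 201 CPM and did not pass (edgeR adjusted p = 0.0644). The list's median log2 fold change was 0.05. Of 19 other engulfment genes, all tested, Bcar1, the p130Cas scaffold upstream of Crk and Dock1, was the 1 that passed, falling 1.34-fold (edgeR adjusted p = 0.0494). This count, 5.26% of the list, is near the background of 6.28%, and the call was lost in 12 of 18 alternatives, among them leaving out any 1 of the 8 libraries (edgeR adjusted p 0.0556 to 0.127). The engulfment list had a median log2 fold change of -0.25, with 15 of 19 genes negative. Over all tested genes the median was -0.01 and 48.85% were positive. Dock5, a relative of Dock1, had a log2 fold change of -0.82 (0.0536), Cdc42 -0.41 (0.0557), and Gulp1, the engulfment adaptor, 0.74 (0.0805).

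Among 11 find-me genes, which attract phagocytes to dying cells, 2 fell (18.2%, beside 6.28% of all tested genes called lower) and 9 did not pass, with a list median of -0.19. Sphk1, which makes sphingosine 1-phosphate, fell 1.92-fold (edgeR adjusted p = 0.00759) and Panx1, the channel that releases ATP from apoptotic cells, 1.98-fold (0.0282). The Panx1 call was lost in 8 of 18 alternatives (adjusted p up to 0.120), among them leaving out control 1, control 3 or any 1 knockout (edgeR adjusted p 0.0539 to 0.0769). P2ry2, a receptor for that ATP, had a log2 fold change of 0.54 (0.0730). Of 8 do-not-eat-me genes 7 were tested (median log2 fold change -0.34) and 1 fell (14.3%, beside 6.28% of all tested genes called lower). It was Cd24a, a ligand of inhibitory Siglec receptors that injured tubules also express, at 587 ± 262 and 271 ± 13.96 CPM (edgeR adjusted p = 0.0233). That call was lost in 5 of 18 alternatives, among them leaving out control 3 (edgeR adjusted p = 0.0591), knockout 2 (0.0672), knockout 3 (0.0621) or knockout 4 (0.0667). Neither Cd47 (log2 fold change -0.34) nor its receptor Sirpa (-0.33) passed.

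Of 19 genes of corpse digestion and lipid efflux, all tested, Ucp2, a mitochondrial carrier that supports continued uptake, was the 1 that passed, falling 1.88-fold (edgeR adjusted p = 0.0336), while 18 did not pass, with a list median of -0.03; 1 of 19 is near the background. The Ucp2 groups overlapped, with control 1 at 348 CPM and knockout 1 at 391 CPM. Its call was lost in 7 of 18 alternatives (adjusted p up to 0.122), among them leaving out control 2, 3 or 4 or knockout 2, 3 or 4 (edgeR adjusted p 0.0544 to 0.0973). Abca7, a lipid transporter of phagocytes, had a log2 fold change of 0.36 (0.0646). Among 13 genes that act on or below TAM receptors, 3 fell (23.1%, beside 6.28% of all tested genes called lower) and 10 did not pass, with a list median of -0.27. Socs3, a brake on cytokine signalling that TAM receptors induce, fell from 64.6 ± 27.1 to 13.9 ± 2.58 CPM (4.64-fold, edgeR adjusted p = 0.00184), Pik3r1, a regulatory subunit of PI3-kinase, fell 2.22-fold (0.00688), and the kinase gene Src 1.64-fold (0.00652). Over the 7 lists 95 genes were tested, of which edgeR called 13 (13.7%), each of them lower, beside 6.28% lower and 6.45% higher of all tested genes. The lists were chosen with earlier results of these data known, so this share is a description and not a test. Havcr1 is also 1 of the 15 injured tubule markers, of which 13 were called lower. The immediate early and heat shock genes, which can respond to tissue digestion, had 11 of 18 called lower over the same groups, and their part was not tested.

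**Figure D5:**
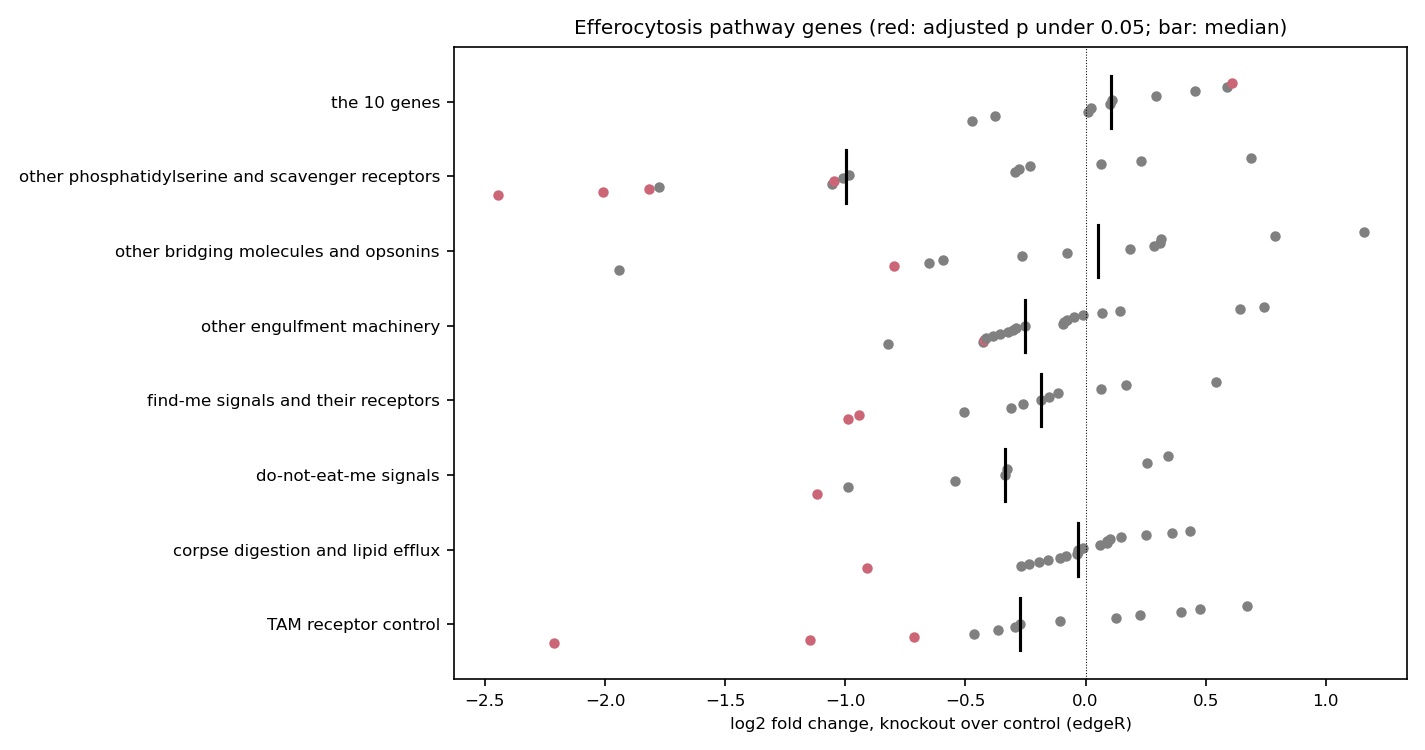
Log2 fold change of knockout over control for the tested genes of each list (points, red where the edgeR adjusted p is under 0.05) with the list's median as a black bar. The 10 genes have a median of 0.11 and 1 call, Mertk, higher; all 13 calls in the other 7 lists are lower.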

How the data were processed

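Kidney RNA of 8 libraries (4 control, 4 knockout) was analysed from 1 deposited table of counts per gene, whole numbers with no normalization, with a gene length column of another unit (bases). The submitters' processing notes list Salmon 1.10.2, HISAT2 2.2.1, Trim Galore 0.6.2, FastQC and the build mm39, with no roles; which of them made the counts is not given in the sources used here, nor are the annotation and filters. Of the values from 1 to 20, 68.7% to 70.9% per library were even, so a count may stand for less than 1 independent fragment, and precision from depth covers counting error only. Genes were taken by symbol, since 13 of 18423 known Ensembl identifiers belonged to the symbol of their line.

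The test was edgeR 4.0.16 (R 4.3.3): filterByExpr with a minimum count of 10, TMM, glmQLFit and glmQLFTest, two-sided, with Benjamini-Hochberg adjustment over 15000 genes and calls at an adjusted p under 0.05. Intervals are 95% and come from the F statistic. On simulated data for this comparison (14847 genes), 75% of genes changed 2-fold and 95% of those changed 4-fold were recovered, with 6 unchanged genes called. The simulated counts were drawn independently, without the shifts that many genes share within a real library, so real recovery and false calls may be worse. No change under 2-fold was simulated, so recovery of one like that of Mertk (1.53-fold) is not known. Log2 CPM used a prior count of 2, and RPKM the deposited lengths. Promoter windows are RefSeq's on GRCm38.p6, which differs from mm39. The genes, lists and tests were chosen with earlier results of these data known. Named pathway genes are up to 5 per list by smallest p, and marker genes are named beside the results they move with or the marker lists they belong to. Likeness is Pearson's r of deviations from group means, the 3 highest genes per member. Alternatives were DESeq2 1.42.0, limma 3.58.1 voom with sample quality weights, 3 other scalings, 2 other filters, length and GC trends removed, a replicate block, each library left out and, chosen after seeing the data, control 1 and knockout 3 left out together. Same-numbered deviations correlated at -0.20, 0.04, 0.15 and -0.16, and differently numbered ones at -0.33 to 0.35. This check cannot settle whether libraries were paired by number.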

Additional observations from a re-analysis of the deposited data

How the results depend on the processing

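The count of genes called, 1909 of 15000 here, was 3013 with DESeq2, 865 with the replicate block, 907 to 1984 when 1 library was left out (907 for knockout 4, 1050 for knockout 2, 1058 for control 3, 1139 for knockout 3) and 1045 without control 1 and knockout 3. The count of the 10 genes called higher, 1 here, was 2 with DESeq2, with library totals only and with voom and sample quality weights, 0 to 2 when 1 library was left out, and 0 without control 1 and knockout 3; no alternative called any of the 10 lower. With the replicate block Mertk had an edgeR adjusted p of 0.0476, and the block changed no call among the 10. The labels do not pair the libraries, and the correlations between libraries cannot settle whether they were paired.

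Over 18 alternatives the 10 genes gave 180 values, of which 13 changed sign, each from a log2 fold change of 0.11 or less. Dock1 turned to -0.0052 with length and GC trends removed and ran from -0.0986 to 0.149 when 1 library was left out. Lrp1 turned to -0.0708 with those trends removed and ran from -0.0652 to 0.207 when 1 library was left out. Mfge8 turned to -0.0364 with voom and quality weights and to -0.0429 without control 1 and knockout 3, and ran from -0.0260 to 0.0809 when 1 library was left out. Stab1 ran from -0.0596 to 0.249 when 1 library was left out. The cause was not tested. None of the 35 named pathway genes changed sign in 629 values, though 40 lost and 30 gained a call. Depth limits Elmo1 (70 to 155 counts per library) and Tyro3 (151 to 364 counts) most.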
